A study of Mus musculus with 18 samples.

Results

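The claudins are the membrane proteins that form the strands of tight junctions, and 8 claudin genes were described here in epithelium of the mouse duodenum: Cldn2, Cldn3, Cldn4, Cldn7, Cldn8, Cldn12, Cldn15 and Cldn23. They were chosen by symbol, and all 8 had 1 row in each of the 3 tables, which list 17759 genes for crypts, 17423 for day 1 enteroids and 17612 for day 3 enteroids. RNA came from duodenal crypts of 3 WT (Mtgr1+/+) and 3 Mtgr1-/- mice, collected fresh or after 24 h (day 1) or 72 h (day 3) as enteroids, which are epithelial cultures grown from crypts. Every mouse gave 1 library at each time, so there were 18 bulk libraries in 6 groups of 3. The mice were young adult, age-matched littermates of both sexes. Mtgr1-/- animals lack the transcriptional corepressor MTGR1 (gene symbol Cbfa2t2) in every tissue, so the genotypes differ outside the epithelium too.

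Claudins line the space between neighbouring epithelial cells, and their extracellular loops decide which ions and molecules pass between cells. Cldn2 and Cldn15 form pores for cations and water. In the small intestine Cldn2 is best known from crypts, and Cldn15 lets sodium return to the lumen to drive nutrient uptake. Cldn3, Cldn4, Cldn7 and Cldn8 are mostly described as barrier-forming, Cldn7 also lies along the lateral membrane in complex with EpCAM, and Cldn4 is known from differentiated surface cells. Cldn12 has been tied to paracellular calcium transport, and Cldn23 to differentiated surface cells of the gut.

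The libraries held 22035316 to 29661084 reads. The immune marker list summed to 469 CPM (counts-per-million of the listed genes) in the WT crypt library of mouse 3 and to between 32.1 and 61.3 in the other 5 crypt libraries, so the crypt calls are also given without it. At day 1 it was 27.2 in the Mtgr1-/- library and 20.2 in the WT library of mouse 3, against 3.37 to 7.45 in the other 4, and at day 3 it was 40.9 in the Mtgr1-/- library of mouse 3, against 4.15 to 5.56 in the others. In crypts all 10 immune genes were tested and 0 were called. In Mtgr1-/- enteroids 1 was called as higher at day 1 (of 8 tested) and at day 3 (of 5). These are 12.5% and 20%, beside 58.9% and 59.0% of all genes. Without the Mtgr1-/- library of mouse 3 at day 1, 4 of 5 tested were called as lower, or 80% beside 51.6% of all genes. Endothelial genes summed to at most 10.3, fibroblast genes to at most 4.19 and smooth muscle genes to at most 1.70 CPM in any library. Epithelial genes (Epcam, Vil1 and 5 others, all detected) summed to 6002 or more in every library, so the epithelial label holds. Of these 7 genes, 1 was higher in Mtgr1-/- crypts, 4 at day 1 and 6 at day 3, and 0 were lower. These are shares of 14.3%, 57.1% and 85.7%, beside 4.73%, 58.9% and 59.0% of all genes called in either direction. In CPM 1, 2 and 5 were higher. Of the endothelial genes 2 of 3 tested (66.7%) were lower in Mtgr1-/- enteroids at both times and 0 of 4 were called in crypts. Of the fibroblast genes the 1 tested was higher at day 1 only. Gene-level reads of Cbfa2t2 were not lower in the libraries labelled Mtgr1-/- (log2 differences of -0.05 for crypts, 0.37 for day 1 and 0.06 for day 3, with adjusted p-values from limma of 0.917, 0.0557 and 0.686). They span the whole gene, the deleted part is not given in the sources used here, and the genotypes therefore rest on the labels.

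In the mouse genome build GRCm38 with GENCODE M21, Cldn2 (ENSMUSG00000047230.6) lies on chromosome X from 139800828 to 139811386 on the plus strand. Chromosome 5 carries 4 of the 8 members. Cldn4 (134945119 to 134946934, minus strand) and Cldn3 (134986214 to 134987472, plus strand) are close neighbours there, with Cldn15 at 136966616 to 136975858 and Cldn12 at 5489537 to 5514958. Cldn7 lies on chromosome 11, Cldn23 on chromosome 8 and Cldn8 on chromosome 16. All are protein coding, and their values are sums over all annotated transcripts, of which Cldn3, Cldn4 and Cldn8 have 1 each and Cldn12 has 8. The end of Cldn3 is overlapped by the antisense gene Wbscr25 on the other strand. The libraries were stranded, but the strand setting of the counting is not given in the sources used here, so a small share of Wbscr25 reads in the Cldn3 value cannot be told apart from its own.

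RefSeq promoter windows (GRCm38.p6, 250 bases before to 50 bases after an annotated start) were at hand for 6 of the 8 members. The 3 below belong to the pore formers Cldn2 and Cldn15, which moved in opposite directions between genotypes in enteroids, and to Cldn4, which had the largest genotype difference of the 8 at day 3. They are written 5′ to 3′ on the strand of the gene, at chrX:139800558-139800857 (plus strand) for Cldn2, chr5:136967619-136967918 (plus strand) for Cldn15 and chr5:134946885-134947184 (minus strand) for Cldn4. Capitals mark every match to the E-box letters CANNTG and to the AP-1 letters TGANTCA, which read the same on both strands and were chosen after the sequences had been seen.
Cldn2: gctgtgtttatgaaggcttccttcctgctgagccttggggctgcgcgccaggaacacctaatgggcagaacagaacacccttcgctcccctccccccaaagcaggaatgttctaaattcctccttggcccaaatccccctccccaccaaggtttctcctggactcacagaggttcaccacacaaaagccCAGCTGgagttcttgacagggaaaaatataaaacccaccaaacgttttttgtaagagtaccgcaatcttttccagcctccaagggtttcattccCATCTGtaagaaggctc
Cldn15: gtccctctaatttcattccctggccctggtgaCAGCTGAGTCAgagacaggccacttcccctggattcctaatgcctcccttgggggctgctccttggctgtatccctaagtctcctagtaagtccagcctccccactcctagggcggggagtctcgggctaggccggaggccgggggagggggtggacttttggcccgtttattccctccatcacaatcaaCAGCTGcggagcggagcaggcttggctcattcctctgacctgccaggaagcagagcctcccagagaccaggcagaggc
Cldn4: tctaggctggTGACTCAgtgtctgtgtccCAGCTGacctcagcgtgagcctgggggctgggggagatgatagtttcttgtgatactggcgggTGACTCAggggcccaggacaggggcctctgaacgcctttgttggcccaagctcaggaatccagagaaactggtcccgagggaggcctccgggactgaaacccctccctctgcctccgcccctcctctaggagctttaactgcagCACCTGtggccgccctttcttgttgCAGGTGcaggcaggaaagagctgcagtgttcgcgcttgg
The RefSeq start of Cldn15 lies inside the longer GENCODE gene. The Cldn2 window holds 2 E-boxes and no AP-1 match. The Cldn15 window holds 2 E-boxes and 1 AP-1 match that overlaps the first of them. Cldn4 has 3 E-boxes and 2 AP-1 matches of the same 7 letters, starting 240 and 158 bases before the start. Over all 32851 mouse promoter windows of this length, 72.3% hold an E-box and 7.81% an AP-1 match, so E-boxes are common and AP-1 letters are not. Cldn3, Cldn7 and Cldn12 have no AP-1 match in their windows. The TCF/LEF letters CTTTGA were also searched for on either strand. They had 0 matches in the windows of the 6 members, beside 16% of all mouse windows with a match. A match is a description of letters and not a binding site.

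Levels of different claudins were compared as CPM per kilobase of the principal transcript (per-length level). In WT crypts Cldn7 (384 ± 37.3, SD, n = 3) and Cldn15 (357 ± 9.56) were highest, with overlapping ranges. Cldn3 (167 ± 17.5) and Cldn2 (81.3 ± 3.89) followed, each separate from its neighbours in this order. Cldn12 (14.6 ± 1.37), Cldn23 (10.5 ± 1.17) and Cldn4 (5.54 ± 0.70) were low, and Cldn8 (0.17 ± 0.06) was near the limit of detection, with 6 to 13 reads per library. Crypts of both genotypes therefore held claudin RNA mostly of Cldn7, Cldn15 and Cldn3. With the union of all exons as the length, chosen after the data were seen, Cldn15 stood before Cldn7 in WT crypts and Cldn3 before Cldn15 in WT day 1 enteroids, and the order of the WT groups was otherwise as given.

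In WT day 1 enteroids the per-length level of Cldn4 was 112 ± 24.7 and that of Cldn2 was 171 ± 17.9, both well above Cldn12 (17.7 ± 0.54). Cldn7 (332 ± 8.28) was highest, and Cldn15 (211 ± 23.9) and Cldn3 (206 ± 7.86) overlapped. In Mtgr1-/- day 1 enteroids Cldn4 (105 ± 26.6) stood before Cldn2 (93.4 ± 9.76), with overlapping ranges, and Cldn23 (21.2 ± 5.25) stood before Cldn12 (13.0 ± 1.03) without overlap, both in the other order from WT. At day 3 the per-length level of Cldn2 was 122 ± 8.26 in WT and 82.5 ± 13.5 in Mtgr1-/- enteroids. That of Cldn4 was 21.4 ± 4.22 in WT, where it overlapped Cldn12 (19.3 ± 1.19), and 72.7 ± 13.3 in Mtgr1-/-, where it overlapped Cldn2.

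Summed over the 8 claudins, the per-length level was 1020 ± 67.7 in WT and 1056 ± 98.9 in Mtgr1-/- crypts, 1061 ± 22.1 and 1064 ± 127 at day 1, and 896 ± 52.6 and 1001 ± 43.9 at day 3 (SD, n = 3 each). An exact two-sided permutation test, which cannot go below 0.1 with 3 against 3 libraries, gave p = 0.6, 1 and 0.2. The make-up of this sum differed more than its size. Cldn2 made up 15.0% to 17.9% of it in WT day 1 libraries and 6.88% to 10.1% in Mtgr1-/- day 1 libraries. Cldn4 made up 1.88% to 2.71% in WT and 5.69% to 8.90% in Mtgr1-/- libraries at day 3. These shares give RNA only, and in bulk samples fewer cells of a type cannot be told apart from less RNA per cell.

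**Figure D1:**
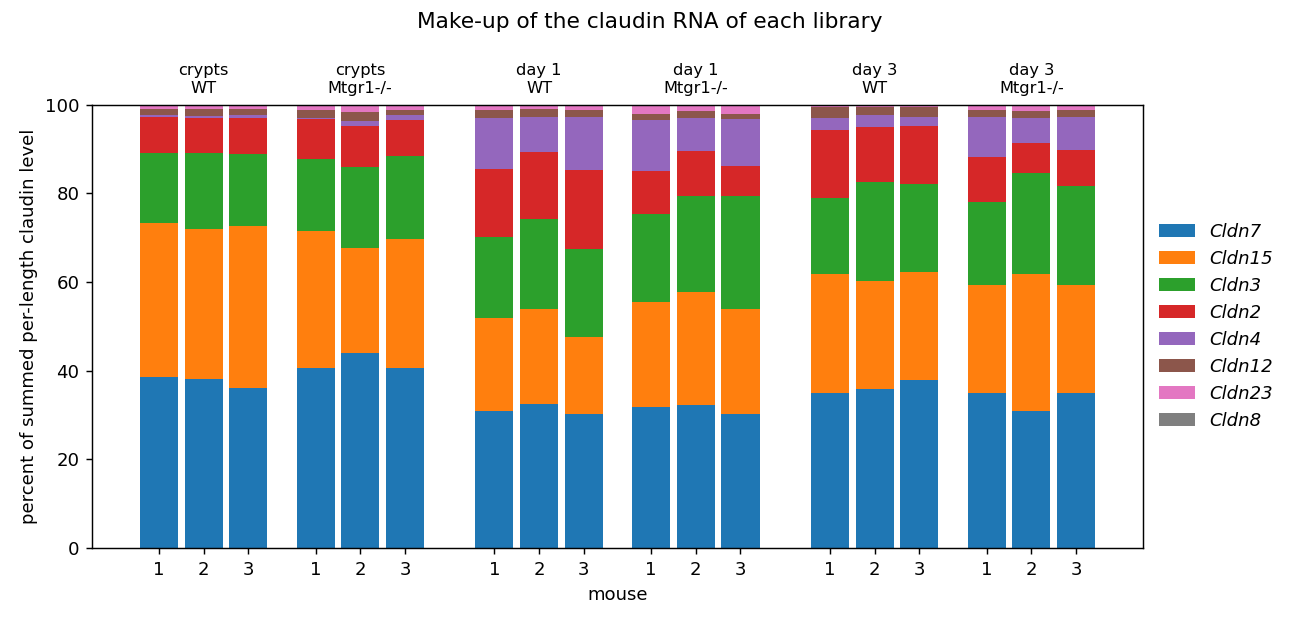
Share of each claudin (y axis, percent) in the summed per-length level of the 8 claudins, with 1 bar per library, grouped by time and genotype and numbered by mouse on the x axis. Cldn7 makes up 30.2% to 44.0% in every library, Cldn4 is thick only from day 1 on and stays thick at day 3 in the Mtgr1-/- libraries, and Cldn8 is too small to see.

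The step from crypts to culture was described in CPM of the listed genes, since the 3 tables were normalized separately, and was not tested. Cldn4 moved most. It was 10.1 ± 1.27 CPM in WT crypts and 203 ± 44.9 in WT day 1 enteroids, which is 20.2 times the crypt level (13.9 to 26.5 times by mouse), and it was 38.8 ± 7.67 at day 3. In Mtgr1-/- libraries Cldn4 was 16.7 ± 8.66 in crypts, 191 ± 48.2 at day 1 (11.4 times, and 5.89 to 29.3 times by mouse) and 132 ± 24.2 at day 3. The WT level at day 3 was therefore 0.19 of that at day 1 and the Mtgr1-/- level 0.69, and the ranges of day 1 and day 3 overlapped in Mtgr1-/- libraries only. Between these days 42.7% of genes did not overlap in WT and 29.5% did not in Mtgr1-/-, among genes averaging 10 or more at either time. Of the 8 claudins 4 (Cldn2, Cldn4, Cldn8 and Cldn23) and 2 (Cldn12 and Cldn23) did not, although those shares leave out Cldn8.

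Cldn2 was 2.10 times as high in WT day 1 enteroids as in WT crypts (248 ± 11.8 against 520 ± 54.5 CPM) and higher in all 3 mice. In Mtgr1-/- libraries the same ratio was 1.01 (283 ± 37.4 against 284 ± 29.7), with overlapping ranges. Cldn15 was 679 ± 18.2 in WT crypts and 401 ± 45.5 in WT day 1 enteroids, a ratio of 0.59, and it was lower in every WT mouse. Its ratio in Mtgr1-/- libraries was 0.89 (553 ± 30.6 against 491 ± 55.5). The ranges overlapped there, but Cldn15 was lower in every Mtgr1-/- mouse too (0.78 to 0.95 times by mouse). Of all genes, 64.7% did not overlap between WT crypts and day 1 enteroids, and 39.6% did not in Mtgr1-/- libraries. Against these shares, 7 of the 8 claudins did not overlap in WT (all but Cldn23) and 3 did not in Mtgr1-/- libraries (Cldn4, Cldn7 and Cldn8).

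Cldn23 at day 3 was 0.43 of its day 1 level in WT (22.6 ± 2.99 and 9.64 ± 0.53 CPM) and was 39.1 ± 9.71 and 23.0 ± 3.17 in Mtgr1-/- libraries. Cldn8 was low throughout. Its WT level was 0.41 ± 0.15, 0.09 ± 0.05 and 0.55 ± 0.13 CPM in crypts, day 1 and day 3 enteroids, and its Mtgr1-/- level was 0.94 ± 0.35, 0.08 ± 0.05 and 0.18 ± 0.06. Cldn7 was the steadiest, with mean levels between 434 and 591 CPM in the 6 groups.

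**Figure D2:**
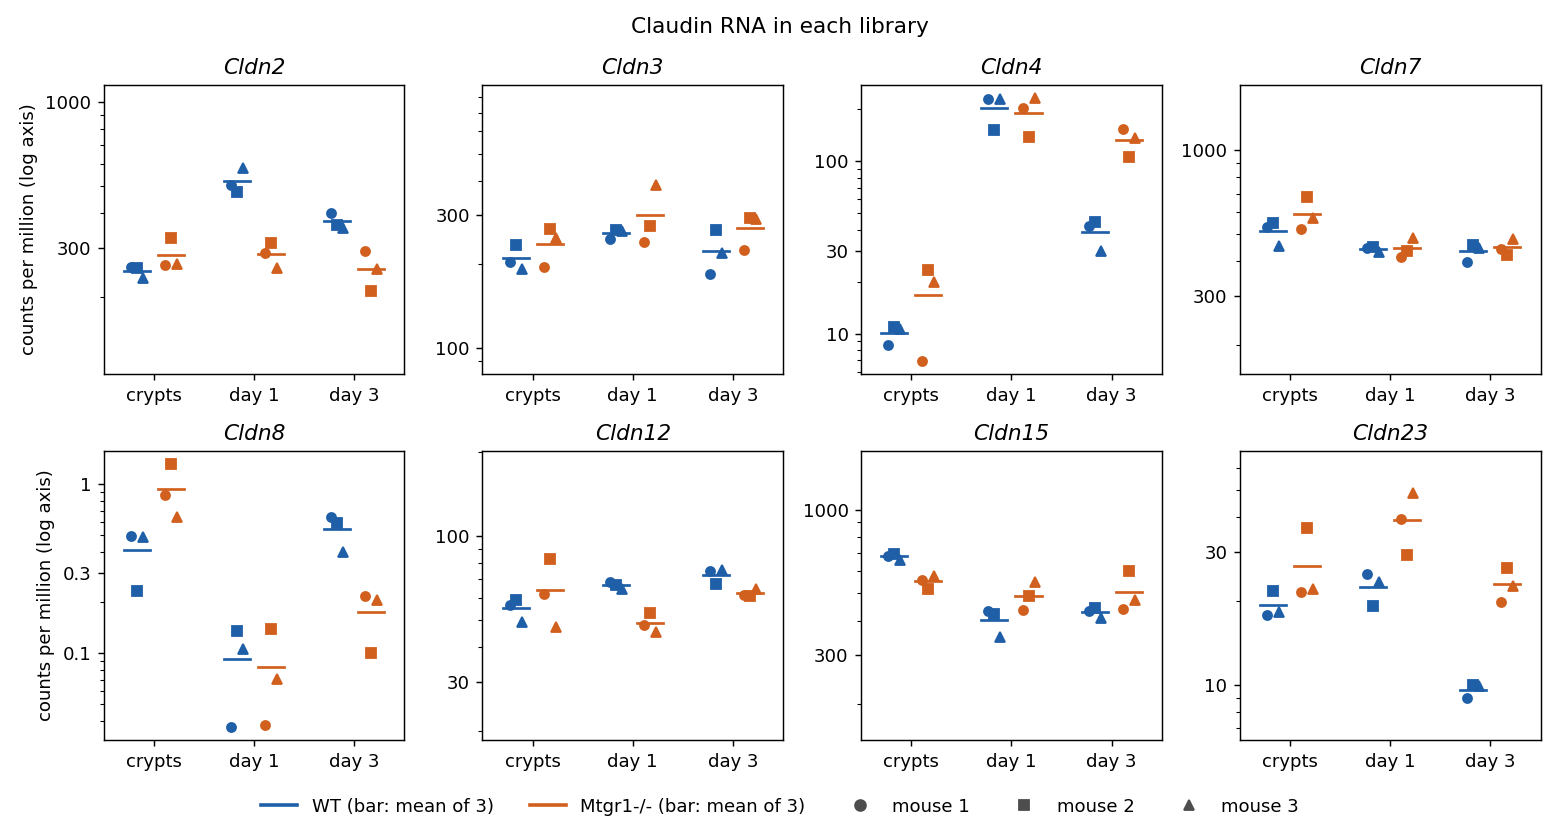
CPM of each claudin (y axis, log scale) in crypts, day 1 and day 3 enteroids (x axis), with 1 point per library, the symbol giving the mouse and a bar the mean of 3. WT Cldn4 rises from 10.1 to 203 and is 38.8 at day 3 while Mtgr1-/- Cldn4 is 132 there, and WT Cldn2 at day 1 lies above all other groups.

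In crypts the comparison of genotypes asks whether claudin RNA differed before culture. Of all 12980 genes tested, 4.73% were called (limma on log2 of the normalized count plus 1, adjusted p under 0.05), and of the 8 claudins 0 were, with 1 of 8 at an unadjusted p under 0.05. In the same crypts 2395 genes had an unadjusted p under 0.05. The normalized counts of Cldn15 were 17138, 17665 and 16998 in WT and 13488, 12362 and 15660 in Mtgr1-/- mice 1 to 3. All Mtgr1-/- crypts were below all WT crypts, and the log2 difference was -0.33 ± 0.12 (SE), with a 95% interval of -0.61 to -0.05 and an adjusted p of 0.202. DESeq2 on recovered reads gave an adjusted p of 0.0439 and limma with library weights 0.0325, while edgeR gave 0.198.

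Cldn8 had 12.5, 5.94 and 12.7 normalized counts in WT and 20.7, 31.4 and 17.3 in Mtgr1-/- crypts. The groups did not overlap, as was the case for 25.5% of genes tested, and the log2 difference of 1.11 ± 0.48 had a 95% interval of -0.03 to 2.25 (adjusted p 0.281). These values rest on 6 to 33 reads per library. Cldn4 was uneven among Mtgr1-/- crypts, at 167, 556 and 536 against 216, 278 and 275 in WT. Its log2 difference was 0.53 ± 0.45 (adjusted p 0.593), and it was 1.10 (adjusted p 0.0385) without the Mtgr1-/- library of mouse 1. The other 5 had log2 differences between 0.14 (Cldn3) and 0.40 (Cldn23), with overlapping groups and adjusted p-values of 0.357 to 0.699. Without the WT crypt library that was high in immune genes, 533 genes (4.21% of those tested) and 0 of the 8 claudins were called. The log2 differences were then -0.34 for Cldn15 (adjusted p 0.259), 1.28 for Cldn8 (0.234), 0.58 for Cldn4 (0.664) and 0.08 to 0.38 for the other 5 (0.509 to 0.871).

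In day 1 enteroids 58.9% of 12587 genes were called, 30.0% as higher and 28.9% as lower in Mtgr1-/-, so a single call says little about claudins in particular. Cldn8 had 0.91 to 3.79 normalized counts, was under the minimum mean of 10 and was not tested. Of the other 7 claudins, Cldn3, Cldn7, Cldn15 and Cldn23 were higher and Cldn2 was lower in Mtgr1-/-, a share of 71.4%. Their median log2 difference was 0.33, against -0.01 over all genes tested.

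The pore former Cldn2 had 12584, 10883 and 13716 normalized counts in WT and 8963, 8468 and 7877 in Mtgr1-/- day 1 enteroids. Every Mtgr1-/- library was below every WT library. The mean was 0.68 of WT (log2 difference -0.55 ± 0.11, SE, adjusted p 0.00392 with limma). Cldn15, the other pore former, had 10772, 9662 and 8240 in WT and 13601, 13275 and 17057 in Mtgr1-/-. The order was the opposite of that of Cldn2, with all Mtgr1-/- libraries above WT and a mean 1.53 times as high (0.61 ± 0.14, adjusted p 0.00666). Both calls remained in all 6 fits that left out 1 library.

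Cldn23 showed the largest difference of the 7 at day 1, with 624, 442 and 554 normalized counts in WT and 1224, 795 and 1517 in Mtgr1-/-. The groups did not overlap, and the mean was 2.18 times as high (log2 difference 1.09 ± 0.24, adjusted p 0.00553). Cldn3 had 6167, 6087 and 6242 in WT and 7529, 7470 and 12024 in Mtgr1-/- enteroids. The WT libraries lay close together and the library of Mtgr1-/- mouse 3 lay far above the others (0.51 ± 0.18, adjusted p 0.0392). Without WT mouse 1, 2 or 3 this adjusted p was 0.0908, 0.0961 or 0.0855. For Cldn7, the partner of EpCAM, the counts were 11124, 10359 and 10174 in WT and 12914, 11825 and 15166 in Mtgr1-/- (0.33 ± 0.11, adjusted p 0.0365). Its groups were separate but close, and the adjusted p was 0.0609 to 0.115 without any 1 of the 3 WT libraries or Mtgr1-/- library 1 or 3.

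Cldn4 at day 1 had 5687, 3476 and 5439 normalized counts in WT and 6323, 3740 and 7224 in Mtgr1-/-. The groups overlapped, and the library of mouse 2 was lowest in both genotypes. The log2 difference of 0.22 ± 0.27 had a 95% interval of -0.41 to 0.86 (adjusted p 0.506). Within each of the 3 pairs of equal mouse number, which are different animals, Cldn4 was higher in Mtgr1-/- on this scale. With the replicate block the adjusted p from limma was 0.0588. In CPM Cldn4 was lower in Mtgr1-/- for numbers 1 (203 against 228) and 2 (138 against 151). It was 232 against 230 for number 3. Cldn12 had 1704, 1532 and 1521 in WT and 1496, 1431 and 1404 in Mtgr1-/-. The groups did not overlap, and the log2 difference was -0.13 ± 0.08 (adjusted p 0.202). The Mtgr1-/- library of mouse 3, which was high in immune genes, had the highest day 1 count of Cldn3, Cldn4, Cldn7, Cldn15 and Cldn23. Without it Cldn2 (-0.50), Cldn3 (0.28), Cldn15 (0.50) and Cldn23 (0.88) were called, with adjusted p-values of 0.0153 to 0.0267. These were 57.1% of the 7 tested, beside 51.6% of all genes. Without the WT library of mouse 3, Cldn2 (-0.47), Cldn15 (0.51) and Cldn23 (1.12) were called, or 42.9% of 7 beside 50.8% of all genes.

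In day 3 enteroids 59.0% of 12782 genes were called, 29.9% as higher and 29.1% as lower in Mtgr1-/-. The same 5 claudins as at day 1 were called in the same directions, and Cldn4 was called as well, so that 5 were higher and 1 lower of 7 tested, or 85.7%. Their median log2 difference was 0.42, against 0.00 over all genes tested. The groups did not overlap for 6 of the 8 claudins at day 3, Cldn8 among them, and for 6 at day 1. Of genes tested, which leave out Cldn8 at both times, 68.8% and 68.1% did not overlap. The 2 enteroid comparisons use the same mice. Without the Mtgr1-/- library that was high in immune genes at day 3, Cldn2, Cldn4 and Cldn23 were called. These were 42.9% of the 7 tested, a smaller share than the 53.1% of all genes called in that fit.

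The day 3 counts of Cldn4 were 991, 1068 and 729 in WT and 4003, 3121 and 3717 in Mtgr1-/- enteroids. The lowest Mtgr1-/- library was far above the highest WT library, and the mean was 3.89 times as high (log2 difference 1.97 ± 0.16, SE, adjusted p 4.24e-05 with limma). Cldn23 had 213, 240 and 240 in WT and 519, 773 and 618 in Mtgr1-/-. Again the groups were far apart, with a mean 2.76 times as high (1.44 ± 0.15, adjusted p 0.00018). Both calls remained in all 18 alternative fits.

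Cldn2 had 9478, 8718 and 8566 normalized counts in WT and 7604, 6176 and 6848 in Mtgr1-/- at day 3. It was again lower in every Mtgr1-/- library (-0.38 ± 0.10, adjusted p 0.0104, a mean 0.77 of WT). Cldn15 had 10227, 10671 and 9904 in WT and 11472, 17757 and 12827 in Mtgr1-/- enteroids. The groups were separate, with the library of Mtgr1-/- mouse 2 far above the rest (0.42 ± 0.15, adjusted p 0.0416). Without any 1 WT library, or without Mtgr1-/- library 3, the adjusted p of Cldn15 was 0.0575 to 0.114.

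Cldn3 at day 3 had 4361, 6406 and 5306 in WT and 5871, 8677 and 7923 in Mtgr1-/-. The groups overlapped through 1 library of each genotype (0.48 ± 0.18, adjusted p 0.045), and the adjusted p was 0.101 to 0.155 without WT library 1 or 3 or Mtgr1-/- library 2 or 3. The counts of Cldn7 were 9418, 10975 and 10812 in WT and 11547, 12468 and 13075 in Mtgr1-/-. They did not overlap, but the difference was small (0.25 ± 0.09, adjusted p 0.0494, and 0.0622 to 0.176 without any 1 WT library or Mtgr1-/- library 2 or 3).

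Cldn12 differed little at day 3, with 1767, 1619 and 1828 in WT and 1604, 1796 and 1747 in Mtgr1-/- enteroids. The groups overlapped, and the log2 difference of -0.02 ± 0.08 had a 95% interval of -0.21 to 0.17. Cldn8, which was under the minimum mean, had 15.2, 14.3 and 9.68 in WT and 5.69, 2.98 and 5.61 in Mtgr1-/-. All Mtgr1-/- libraries were below WT, the order opposite to that in crypts, on 3 to 17 reads per library. In a fit with no filter on low values its log2 difference was -1.30 (adjusted p 0.027).

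**Figure D3:**
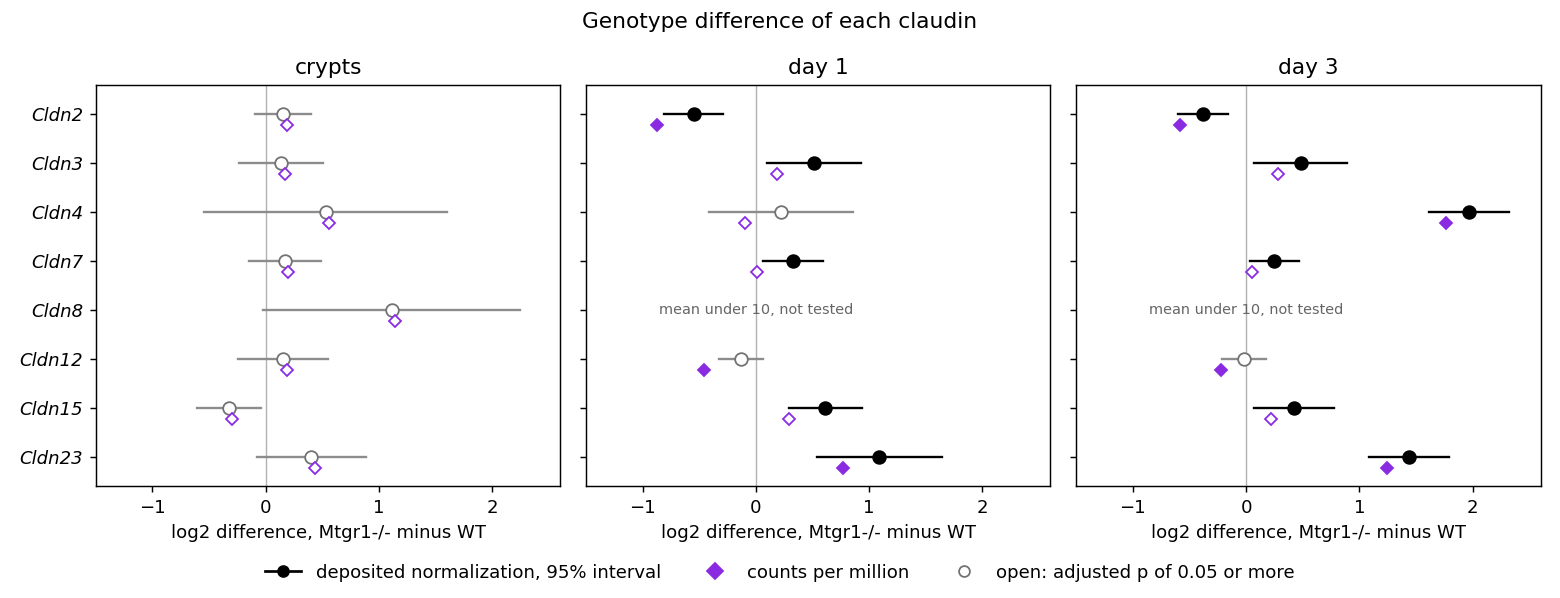
Log2 difference of Mtgr1-/- minus WT (x axis) for each claudin (y axis) for crypts, day 1 and day 3 enteroids, with circles and 95% intervals for the deposited normalization, diamonds for CPM, and filled symbols for an adjusted p under 0.05. Cldn2 lies left of 0 and Cldn23 right of 0 on both scales at day 1 and day 3, while Cldn3, Cldn7 and Cldn15 are filled on the deposited scale only.

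The scale of the comparison mattered for the small differences. Normalized counts summed to 27141338 to 31152183 per Mtgr1-/- library and 22946791 to 24911854 per WT library at day 1, and to 26059734 to 29488873 and 23632198 to 24221756 at day 3. Scaled to CPM, the median log2 difference of all genes moved to -0.33 at day 1 and to -0.20 at day 3. Of the called genes, 50.9% were higher at day 1 before this scaling and 28.3% after it, and at day 3 the shares were 50.7% and 35.2%. In CPM 7794 of 12587 genes were called at day 1 and 7836 of 12782 at day 3. On this scale Cldn2 was lower (-0.87 and -0.58, adjusted p 0.00055 and 0.00458) and Cldn23 higher (0.77 and 1.24, adjusted p 0.00966 and 0.00022) at both times, and Cldn4 was higher at day 3 (1.77, adjusted p 0.000176). Cldn3, Cldn7 and Cldn15 were not called at either time, with log2 differences of 0.01 to 0.29 and adjusted p-values of 0.0592 to 0.952. Cldn12 was called as lower at both (-0.45 and -0.22, adjusted p 0.00376 and 0.0431). Cldn4 at day 1 changed sign to -0.10 (adjusted p 0.72).

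Cell type markers moved with genotype in enteroids as well. Of 20 enterocyte markers, 19 were higher and 1 lower in Mtgr1-/- at day 1, and 18 were higher and 0 lower at day 3. These are 100% and 90%, beside 58.9% and 59.0% of all genes. The 20 markers summed to 17084 to 20222 CPM in WT and 31006 to 40376 in Mtgr1-/- at day 1, and 11780 to 14005 and 22692 to 35075 at day 3. Of 14 markers of crypt base stem cells, 13 were lower at day 1 (92.9%) and 12 at day 3 (85.7%), and 0 were higher. They summed to 2414 to 3666 in WT and 348 to 468 in Mtgr1-/- at day 1, and to 5290 to 6499 and 521 to 944 at day 3. In crypts 3 of the 14 stem cell markers were lower, a share of 21.4% beside 4.73% of all genes, and 2 were lower in CPM or without the WT library high in immune genes. Their sum was 1784 to 2288 CPM in WT and 539 to 1115 in Mtgr1-/- crypts, which did not overlap. Of the 20 enterocyte markers 1 was lower in crypts (5%), or 1 lower and 1 higher without that library (10%, beside 4.21% of all genes). In CPM 2 were higher and 1 was lower, beside 563 of 12980 genes called. Their median log2 difference in crypts was 0.23, against 0.01 over all genes tested. Their sum was 33953 to 39521 CPM in WT and 25405 to 37801 in Mtgr1-/- crypts, which overlapped. Of 8 tested M cell markers, 3 were higher and 3 lower at day 1 (75%), and 3 higher and 4 lower at day 3 (87.5%). The part of these shifts in the claudin differences was not tested. Xist, the RNA of the inactive X chromosome, was high (9047 to 14831 normalized counts) in the libraries of WT mouse 3 and Mtgr1-/- mouse 1 and 1.10 to 19.6 in the rest, so each genotype had 1 such mouse beside the X-linked Cldn2.

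Whether the genotype difference itself changed with culture was tested in 1 limma model over all 18 libraries. From crypts to day 1 the difference of Cldn2 moved by -0.71 ± 0.15 on the log2 scale (SE, adjusted p 0.0027) and that of Cldn15 by 0.94 ± 0.21 (adjusted p 0.00378). These were the 2 called of 7 claudins tested, where 41.4% of all 12145 genes were called. Both were also called in CPM (-1.06 and 0.59), where Cldn12 was called as well (-0.64, adjusted p 0.0192). Cldn23 moved by 0.69 ± 0.32 (p 0.049 from limma, adjusted p 0.098). It moved by 0.42 to 1.16 with 1 mouse left out, and of these 6 fits it was called in 1, without Mtgr1-/- mouse 2 (1.16, adjusted p 0.000795). Cldn3, Cldn4, Cldn7 and Cldn12 had adjusted p-values of 0.193 to 0.661. From day 1 to day 3 the test called 4 genes, 0.0329% of those tested, and 0 claudins with limma. Cldn4 had the lowest unadjusted p of the 7 there (1.75 ± 0.52, p 0.00402 from limma, adjusted p 0.319), and it was the 1 claudin of these with an unadjusted p under 0.05.

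The ratio of Cldn2 to Cldn15 within a library does not depend on scaling between libraries. Its log2 value was -1.42, -1.45 and -1.49 in WT crypts and -1.10, -0.67 and -1.15 in Mtgr1-/- crypts. Mtgr1-/- crypts were thus all above WT crypts, with a mean difference of 0.48. At day 1 the ratio was 0.22, 0.17 and 0.74 in WT and -0.60, -0.65 and -1.11 in Mtgr1-/- enteroids. Here all Mtgr1-/- libraries were below all WT libraries, by 1.17 on average (mean log2 difference -1.17). At day 3 the values were -0.11, -0.29 and -0.21 in WT and -0.59, -1.52 and -0.91 in Mtgr1-/- (difference -0.80). The groups were separate at all 3 times, and the exact two-sided permutation p was 0.1 each time, the smallest that 3 against 3 libraries can give. At day 1 and day 3 this follows from the separate groups of Cldn2 and of Cldn15 given above, so it is no further result. The WT ratio rose from crypts to day 1 in each mouse and lay between at day 3. The Mtgr1-/- ratio also rose from crypts to day 1 in each mouse. It went from -1.10 to -0.60 in mouse 1, from -0.67 to -0.65 in mouse 2 and from -1.15 to -1.11 in mouse 3. The Mtgr1-/- means of -0.98 ± 0.26, -0.79 ± 0.28 and -1.01 ± 0.47 (SD, n = 3) differed by less than their spread.

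**Figure D4:**
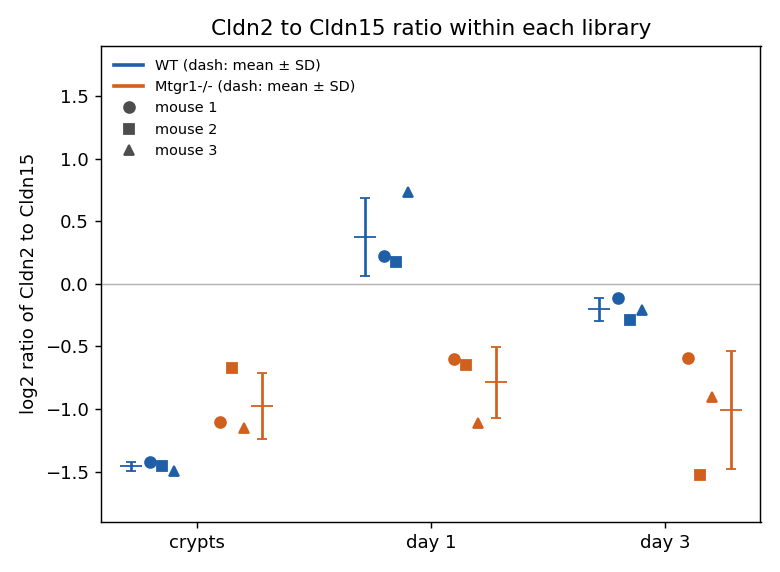
Log2 ratio of Cldn2 to Cldn15 (y axis) in each library by time (x axis), with symbols for the mouse and dashes with error bars for the mean ± SD of 3. WT libraries have means of -1.46, 0.38 and -0.20 at the 3 times, and Mtgr1-/- libraries stay between -1.52 and -0.59.

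Claudins work with scaffold and accessory proteins of the junction, and these were read from a list of tight junction partners with 24 genes tested at each time. In crypts 2 were higher in Mtgr1-/- and 0 lower (limma), or 8.33% beside 4.73% of all genes. The 2 were Ildr1, an angulin of tricellular junctions (log2 difference 1.99 ± 0.27, adjusted p 0.01), and Tjp1, the scaffold ZO-1 that binds claudin tails (0.40 ± 0.08, adjusted p 0.0333). Tjp1 was not called in CPM (adjusted p 0.0777) or without the WT library high in immune genes (0.0624), where Ildr1 was (2.21 ± 0.24, adjusted p 0.00935). At day 1, 16 were higher and 2 lower, a share of 75.0% beside 58.9% of all genes, with a median log2 difference of 0.51. Ildr1 (1.66 ± 0.32), Cgnl1, the junction protein paracingulin (1.09 ± 0.38), and Tjap1 (0.88 ± 0.08) were highest. The groups overlapped for Cgnl1, which was not called in CPM (adjusted p 0.126) or without the WT library of mouse 3 (0.0542). Ybx3, a transcription factor that binds ZO-1 (-0.93 ± 0.14), and Amot, angiomotin (-0.92 ± 0.15), were lower. In CPM 8 were higher and 4 lower, a smaller share than the 7794 of 12587 called over all genes. At day 3, 17 were higher and 2 lower, a share of 79.2% beside 59.0% of all genes. In CPM 12 were higher and 2 lower, beside 7836 of 12782 called over all genes. The rises were led by Ildr1 (3.16 ± 0.21), Cgnl1 (2.46 ± 0.21) and Pard6b, a polarity protein (0.99 ± 0.08), with Amot (-0.72 ± 0.11) and Ybx3 (-0.64 ± 0.10) lower again.

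Of 16 genes of adherens junctions and desmosomes, 1 was lower in crypts and 0 higher, or 6.25% beside 4.73% of all genes. Both counts were 0 in CPM or without the WT library high in immune genes. At day 1, 10 were higher and 1 lower, a share of 68.8% beside 58.9% of all genes. In CPM 4 were higher and 3 lower, a smaller share than the 7794 of 12587 over all genes. At day 3, 13 were higher and 1 lower, or 87.5% beside 59.0%. In CPM the day 3 counts were 10 and 2, beside 7836 of 12782 over all genes. Nectin1, an adhesion receptor, was the gene that was lower at all 3 times (-0.63 ± 0.11, -1.11 ± 0.11 and -0.90 ± 0.10). In crypts it was not called in CPM (adjusted p 0.0688) or without that WT library (0.0511). Cdh17, the intestinal cadherin, was higher at day 1 (0.99 ± 0.17) and day 3 (0.80 ± 0.10), as were Vcl, vinculin (0.91 ± 0.12 and 0.97 ± 0.07), and Nectin2 (0.81 ± 0.15 and 0.81 ± 0.09).

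A list of genes that bind, process or regulate claudins had 20 genes tested in crypts, of which 0 were called by limma (without the WT library high in immune genes 1 was called as higher, the kinase gene Wnk4 at 0.88 with an adjusted p of 0.0474, named after its value was seen), and 21 tested at day 1 and day 3. At day 1, 12 were higher and 4 lower, a share of 76.2% beside 58.9% of all genes. In CPM 3 were higher and 5 lower, a smaller share than the 7794 of 12587 over all genes. At day 3, 8 were higher and 4 lower, and this share of 57.1% was near the 59.0% of all genes. In CPM the day 3 counts were 6 and 4, a smaller share than the 7836 of 12782 over all genes. The bile acid receptor Nr1h4 was higher at both times (1.39 ± 0.16 and 1.59 ± 0.13), as was the differentiation factor Klf4 (1.16 ± 0.40 and 1.45 ± 0.15). At day 1 the groups overlapped for Klf4, which was not called in CPM (adjusted p 0.062) or without the WT or the Mtgr1-/- library of mouse 3 (0.0896 and 0.11). Grhl2, an epithelial transcription factor known to act on claudin genes, was lower at both (-0.84 ± 0.12 and -0.67 ± 0.13), as were the intestinal factor Cdx1 (-0.75 ± 0.11 and -0.42 ± 0.13) and the receptor Ephb2 (-0.92 ± 0.08 and -0.50 ± 0.16). The groups overlapped for Cdx1 at day 3.

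Among 26 further claudin and claudin-domain symbols looked for, 2 reached a mean of 10 in any table. Cldn18, a claudin best known from stomach and lung, had 119, 91.6 and 62.0 normalized counts in WT and 216, 131 and 80.5 in Mtgr1-/- at day 1, which overlapped. At day 3 it had 17.9, 4.45 and 1.94 in WT and 39.8, 49.7 and 28.1 in Mtgr1-/- enteroids (log2 difference 2.54 ± 0.65, adjusted p 0.0102 with limma). Cldnd1, a claudin-domain protein, was higher in Mtgr1-/- at day 1 (1.00 ± 0.19, adjusted p 0.00287) and day 3 (0.87 ± 0.11, adjusted p 0.000327) and not called in crypts (0.44 ± 0.12, adjusted p 0.0996).

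Genes whose levels most resembled each claudin were ranked by Pearson's r of log2 CPM over the 18 libraries, which share mice, times and genotypes, among 10589 genes. Those near the top for Cldn4 included S100a11 (r = 0.97) and Myo1c (0.97). Cldn15 was most like Smim24 (0.96), Kbtbd11 (0.93) and Fuca1 (0.92), and Cldn2 was most like Nsrp1 (0.95), Ibtk (0.94) and Mphosph6 (0.94). The first names for the others were Cast for Cldn23 (0.95), Cebpd for Cldn7 (0.94), Gnpnat1 for Cldn12 (0.93), Aga for Cldn8 (0.89) and Phgr1 for Cldn3 (0.87). Among the claudins themselves r ran from -0.80 between Cldn2 and Cldn15 to 0.64 between Cldn7 and Cldn8. Values with Cldn8 rest on few reads, and the highest r without it was 0.63 between Cldn3 and Cldn4.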

How the data were processed

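RNA was measured in 18 stranded mRNA libraries of mouse duodenal crypts and enteroids. Per the labels, the authors trimmed reads with fastp 0.20.0, quantified with Salmon 1.3.0 and used DESeq2 1.26.0. The deposited signal is a gene-level count divided by 1 factor per library, within a table per time. The deposited tables also hold the authors' mean signal, log2 fold changes and standard errors (log2), Wald statistic (score) and p-values, which were not used here.

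Groups and mouse numbers came from the labels. The test, for genes averaging 10 or more, was limma 3.58.1 in R 4.3.3 (trend, 3 against 3, two-sided) on log2(normalized count + 1), with Benjamini-Hochberg adjustment over all genes of a table and a threshold of 0.05. With this pseudocount, fold changes of low genes are understated. Changes between times were fitted over the 18 libraries with a random term for mouse. The ratio test and summed levels used exact permutation in SciPy. Scaling was by the authors' factors, with CPM (counts-per-million of the listed genes) as an alternative. Dividing each library by its smallest step gave whole reads within 0.01 for 100% of values in all 18 libraries, against at most 2.13% of values of 200 reads or more without dividing. Those reads went into edgeR 4.0.16 and DESeq2 1.42.0 as alternatives, and the fits were tested on simulated data. Recovered reads, 22035316 to 29661084 per library, leave counting error small for all claudins but Cldn8. Intervals cover the spread between these libraries, and mice are the replicates.

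Libraries with the same mouse number came from different animals of each genotype. Deviations from group means correlated for equal numbers by 0.12, 0.23 and 0.22 at day 1. The main fits used no pairing at any time, and a replicate block was an alternative. With the replicate block 8027 genes and the same number of claudins, 5, were called at day 1.

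The members and gene lists were chosen with earlier results of these data known. All 8 members are named. Other claudins are named if they reached a mean of 10, and list genes if they were among the largest called rises or falls. Some genes that these rules name are not reported here. Marker lists covered epithelium, enterocytes, crypt base stem cells, M cells, fibroblasts, endothelium, immune cells and smooth muscle. Leaving out the mouse 3 libraries high in immune genes was chosen for the gene lists after seeing the data. Alternatives were leaving out each library, pseudocounts of 0.1 and 8, other filters, scalings and tools.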

Additional observations from a re-analysis of the deposited data

Results flagged for a closer look

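The genotype difference of Cldn2 was not the same in crypts and in day 1 enteroids: the test of the change itself, over all 18 libraries with limma, gave -0.71 ± 0.15 on the log2 scale (SE, adjusted p 0.0027). Mtgr1-/- crypts had 1.12 times the WT mean and Mtgr1-/- day 1 enteroids 0.68 times. The difference of Cldn15 moved the other way by 0.94 ± 0.21 (adjusted p 0.00378), from 0.80 to 1.53 times the WT mean. Leaving out 1 mouse at a time gave -0.83 to -0.60 for Cldn2 and 0.85 to 1.04 for Cldn15. The same test called 41.4% of all 12145 genes, and of the claudins tested it called Cldn2 and Cldn15 only.

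Cldn8 was higher in every Mtgr1-/- than in every WT library in crypts (a mean 2.23 times as high) and lower in every Mtgr1-/- library at day 3 (0.36 times). That difference between crypts and day 3 was not tested, and it rests on few reads. Likewise, Cldn15 was lower in every Mtgr1-/- crypt library and higher in every Mtgr1-/- library at day 3 (1.37 times), and the change from crypts to day 3 was not tested.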

How the results depend on the processing

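Cldn2 and Cldn23 at both enteroid times and Cldn4 at day 3 kept their direction and their calls in all 18 alternatives. The calls of Cldn3, Cldn7 and Cldn15 depended on the settings. At day 1, 3 of the 7 claudins tested were called, not 5, with quantile normalization, with CPM or with no trend. This was a smaller share than the 7309, 7794 and 7176 of 12587 genes called with these settings. With quantile normalization and with CPM 1 of the 3 was higher and 2 were lower. When 1 library was left out, 3 to 5 claudins were called, beside 6136 to 7874 genes. At day 3, 3 of 7 were called, not 6, with quantile normalization or with no trend. This was a smaller share than the 7569 and 7211 of 12782 genes called with these settings. With 1 library left out at day 3, 3 to 6 claudins were called, beside 6096 to 7695 genes. In crypts 1 claudin was called with array weights and 1 with DESeq2 (Cldn15 both times), and 0 to 1 when 1 library was left out (Cldn4, without Mtgr1-/- library 1). The crypt count of all genes, 614, was 2100 with array weights, 1379 with DESeq2 and 176 to 608 with 1 library left out (176 and 211 without WT library 1 and 2, 310 and 379 without Mtgr1-/- library 1 and 3).

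With quantile normalization the sign turned for Cldn4 at day 1 (-0.12) and for Cldn7 at day 1 (-0.046) and day 3 (-0.028), and with CPM for Cldn4 at day 1 (-0.10). With 1 library left out the log2 difference ran from -0.019 to 0.30 for Cldn12 in crypts, from -0.00332 to 0.51 for Cldn4 at day 1 and from -0.069 to 0.029 for Cldn12 at day 3. None of these was called.

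The change from crypts to day 1 was called for 5025 genes, and for 3339 to 5546 with 1 mouse left out (3339 without WT mouse 2). Its sign turned for Cldn7 with CPM (-0.19), and for Cldn4 it ran from -0.97 to 0.28 with 1 mouse left out. The change from day 1 to day 3 was called for 4 genes, for 16 with a pseudocount of 8, for 22 with CPM and for 0 to 882 with 1 mouse left out (882 without Mtgr1-/- mouse 2). Its sign turned with CPM for Cldn3 (0.092) and Cldn7 (0.043), and with 1 mouse left out it ran from -0.26 to 0.15 for Cldn3 and from -0.057 to 0.57 for Cldn23. The cause of these shifts was not tested.

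With the replicate block 562 genes were called for crypts, 8027 for day 1 and 7289 for day 3, and the claudin counts were 0, 5 and 6. Same-number correlations were 0.08, 0.27 and 0.35 in crypts and -0.01, 0.00 and -0.02 at day 3. The main fits used no pairing at any time. Depth limits Cldn8, with at most 33 reads in a library.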
